A study of Rattus norvegicus with 28 samples.

Results

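The small Maf factors are the 3 transcription factors Maff, Mafg and Mafk. They were taken as every probe whose gene symbol was Maff, Mafg or Mafk, which gave 1 probe for each gene, out of 13337 named genes on 22523 probes. The genes were chosen with their differences between the drug groups already known, so their values below are a description and carry no test. Illumina rat bead arrays were used to measure RNA of C6 cells, a rat glial tumor line that had been induced chemically and is used as a model of astrocytes. All cells were kept without serum for 24 h. The groups were untreated cells (6 arrays) and cells given, each at 25 µM for 2 h, desipramine (6 arrays), fluoxetine (6), haloperidol (6) or diazepam (4, numbered 1, 4, 5 and 6). Desipramine is a tricyclic antidepressant, fluoxetine an antidepressant that blocks serotonin reuptake, haloperidol an antipsychotic that blocks dopamine receptors and diazepam a benzodiazepine that acts on GABA receptors. The labels call the replicates biological but do not describe separate thawings, and they state no vehicle for the untreated cells. A single cell line, dose and time were studied, and C6 is a tumor line rather than normal astrocytes.

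Small Maf proteins bind DNA through a basic leucine zipper but, unlike the large Maf factors, have no domain of their own that activates transcription. Pairs of small Mafs therefore tend to repress, whereas a small Maf joined to a CNC factor such as Nrf2 (gene Nfe2l2) activates genes that carry antioxidant response elements, and a small Maf joined to Bach1 or Bach2 represses many of the same sites. In mice, loss of Mafg together with Mafk causes neurological defects, and Mafg is itself a target of Nrf2. Human MAFF is known as a gene that cytokines and cell stress induce quickly.

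The promoter windows of the 3 genes are shown because their transcripts differed between the drug groups in partly different ways. The sequences are from RefSeq on rat build GRCr8, cover 250 bases before to 50 bases after the annotated start, and read 5′ to 3′ along each gene's strand. Capitals mark matches to the motifs described after them.
Maff, chr7:112792537-112792836, + strand: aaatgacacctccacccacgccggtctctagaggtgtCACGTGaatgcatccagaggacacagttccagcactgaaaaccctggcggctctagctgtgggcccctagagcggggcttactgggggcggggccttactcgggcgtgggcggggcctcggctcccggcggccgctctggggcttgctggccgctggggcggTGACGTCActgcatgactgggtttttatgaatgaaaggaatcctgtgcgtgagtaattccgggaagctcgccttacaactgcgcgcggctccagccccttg
Mafg, chr10:106410083-106410382, - strand: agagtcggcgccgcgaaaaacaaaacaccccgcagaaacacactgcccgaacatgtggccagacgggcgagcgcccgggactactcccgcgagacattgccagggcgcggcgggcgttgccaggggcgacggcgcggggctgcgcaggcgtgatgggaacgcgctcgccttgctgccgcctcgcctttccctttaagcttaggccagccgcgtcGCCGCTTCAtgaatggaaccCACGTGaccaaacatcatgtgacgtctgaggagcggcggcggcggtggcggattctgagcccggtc
Mafk, chr12:19959143-19959442, - strand: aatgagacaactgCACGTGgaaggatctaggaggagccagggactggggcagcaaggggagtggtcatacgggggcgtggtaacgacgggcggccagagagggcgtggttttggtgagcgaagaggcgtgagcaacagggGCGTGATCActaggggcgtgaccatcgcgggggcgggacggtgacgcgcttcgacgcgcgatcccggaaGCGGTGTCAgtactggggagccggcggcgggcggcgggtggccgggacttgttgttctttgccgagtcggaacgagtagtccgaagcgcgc
In Maff the capitals mark an E-box, CACGTG, which starts 213 bases before the start site, and a cyclic AMP response element, TGACGTCA, which starts 51 bases before it. In Mafg they mark the antioxidant core TGANNNNGC on the opposite strand, from 36 to 28 bases before the start, and an E-box that starts 16 bases before it. In Mafk they mark an E-box 237 bases before the start and antioxidant cores on the opposite strand that start 110 and 41 bases before it. The cyclic AMP response element was found in the window of Maff and not in those of Mafg and Mafk, and 1.83% of the 33469 promoters in the table hold it. The antioxidant core is common, being held by 40.5% of all promoters, and was found in Mafg and Mafk and not in Maff. The E-box was found in all 3 windows and in 6.42% of all promoters. Both strands were searched, and the marked matches do not overlap each other. No match was found for the AP-1 site TGANTCA (in 7.33% of all promoters), the Maf recognition core TGCTGA (18.4%), the CARE core TGATGNAA (3.98%) or the NF-kappaB motif GGGNNTTCC (5.92%). A match is a description of letters only.

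**Figure D1:**
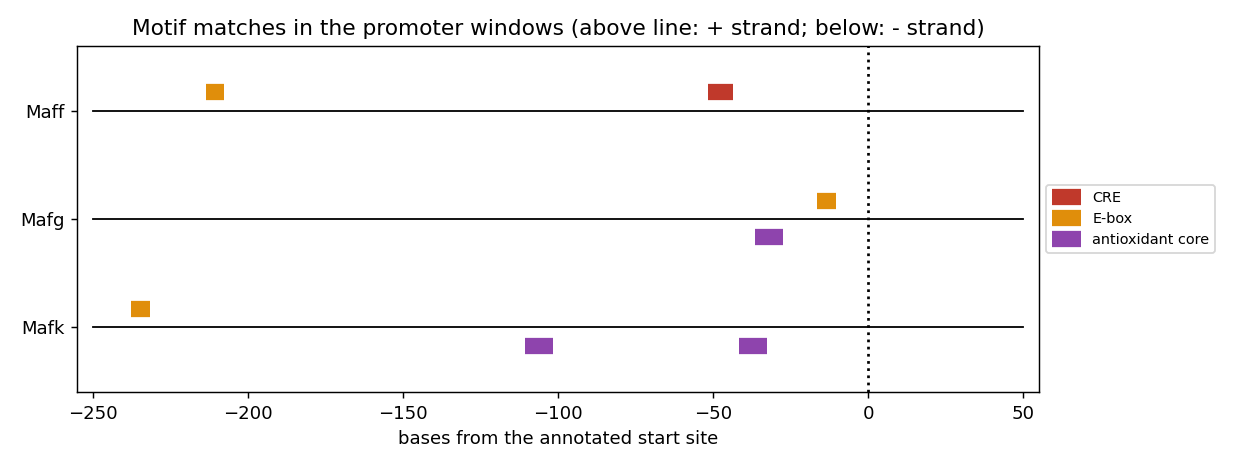
Motif matches in the 300 bases of each small Maf promoter window, with the distance in bases from the annotated start site on the horizontal axis. Each gene is a line, matches on the strand of the gene lie above it and matches on the opposite strand below it. Maff alone has the cyclic AMP response element, and Mafg and Mafk have antioxidant cores close to the start.

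Arrays detected between 9839 and 10537 probes each, with raw median intensities from 80.8 to 108.2. Of the astrocyte and glial markers, 8 of 10 were on the array, 5 were detected on all arrays, Gfap and S100b among them, and Aqp4 and Fabp7 on none. The summed normalized intensity of these markers ran from 8704 to 10663 in untreated cells, 7725 to 9057 with desipramine, 7689 to 9054 with fluoxetine, 7226 to 10263 with haloperidol and 8469 to 10479 with diazepam. Of 6 neuron markers 3 were detected on all arrays and Snap25 on none. Their sum ran from 1569 to 1824 in untreated cells, 1417 to 1751 with desipramine, 1160 to 1319 with fluoxetine, 1282 to 1396 with haloperidol and 1057 to 1427 with diazepam. The neuron marker Nefl fell with fluoxetine, haloperidol and diazepam (differences -0.58, -0.40 and -0.41, limma adjusted p = 1.36e-05, 0.00278 and 0.0196). The median of the 5 measured neuron markers was -0.00, -0.00 and -0.07 in the same order. The glial marker Vim fell with fluoxetine (-0.35, limma adjusted p = 0.044). The 6 measured glial markers had a median of -0.22 there, but Gfap was at 0.13 and Nes at 0.17. Of 5 oligodendrocyte markers on the array 1 was detected on all arrays, and their sum ran from 220.3 to 249.3 in untreated cells, 184.8 to 230.5 under desipramine, 202.2 to 249.1 under fluoxetine, 218.2 to 243.4 under haloperidol and 205.6 to 258.5 under diazepam. Olig1 fell with desipramine (-0.69, limma adjusted p = 0.00294), whereas the other measured oligodendrocyte markers did not, Olig2 being at 0.19 and Mbp at 0.00. The part of these markers in the results was not tested. Of the 3 microglia markers on the array, Cx3cr1 was detected on 16 of 28 arrays, Itgam on 9 and Aif1 on 0. The 3 endothelium markers on the array were each detected on 0 arrays. Untreated array 1 stood apart: it was the far highest of the untreated arrays at 189 of 11364 probes (1.66%), against 16 to 34 probes (0.141% to 0.299%) for each of the others.

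Maff was near the detection limit, and the antidepressant groups were the ones in which every array detected it. Each array has a detection p, the rank of a probe among the negative controls of that array, and a probe counts as detected under 0.05. In untreated cells 1 of 6 arrays detected Maff (array 6, detection p 0.0315), and the others had detection p up to 0.362. With desipramine 6 of 6 arrays detected it, at detection p from 0.00606 to 0.0133, and with fluoxetine 6 of 6, at 0.00364 to 0.017. With haloperidol 1 of 6 arrays did (array 1, 0.0121), the others reaching 0.211. With diazepam 0 of 4 arrays detected Maff, at 0.0958 to 0.173. At the stricter limit of 0.01 the counts were 0, 3, 5, 0 and 0 arrays in the same order.

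**Figure D2:**
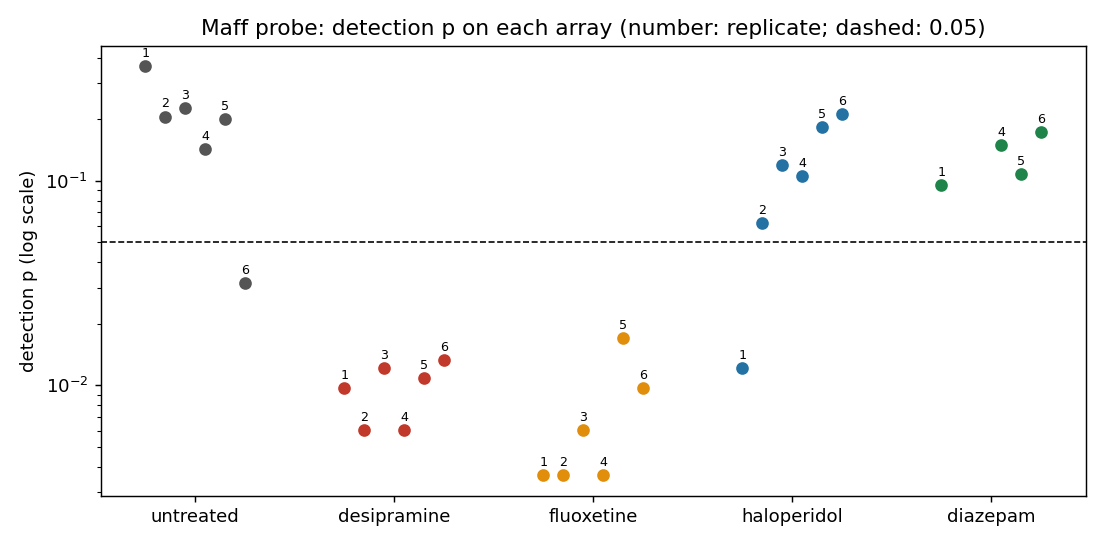
Detection p of the Maff probe on each array, on a log scale, by group. Numbers are replicate numbers and the dashed line is 0.05. All 12 desipramine and fluoxetine arrays lie below the line, with 1 untreated array, 1 haloperidol array and 0 of 4 diazepam arrays.

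The raw intensity of the Maff probe was also highest at the median in the desipramine and fluoxetine groups. It was 71.6 at the lowest, 90.0 at the median and 109.9 at the highest in untreated cells, and 112.0, 118.0 and 129.6 with desipramine. It was 104.1, 124.5 and 170.5 with fluoxetine, and 83.7, 89.3 and 112.1 with haloperidol. The 4 diazepam arrays ran from 79.0 to 93.6. The desipramine arrays thus lay above every untreated array before any normalization, whereas the lowest fluoxetine array lay below the highest untreated one.

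After background correction and quantile normalization, on a log2 scale, the 6 untreated Maff values were 4.77, 4.91, 4.91, 5.02, 4.95 and 5.41 for arrays 1 to 6, and the detection limit lay between 5.21 and 5.34 depending on the array. Desipramine gave 5.68 at the lowest, 5.81 at the median and 6.18 at the highest, and fluoxetine 5.61, 5.98 and 6.14. Haloperidol gave 4.93, 5.08 and 5.60. Every desipramine and fluoxetine value was above every untreated value, while the haloperidol values overlapped the untreated ones, with array 1 the highest. Diazepam gave 5.10, 4.99, 5.12 and 5.00 on arrays 1, 4, 5 and 6, all inside the untreated range.

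Group means of Maff were 4.99 ± 0.22 (SD, n = 6) on the untreated arrays, 5.85 ± 0.18 (n = 6) with desipramine, 5.96 ± 0.19 (n = 6) with fluoxetine, 5.14 ± 0.25 (n = 6) with haloperidol and 5.05 ± 0.07 (n = 4) with diazepam. The mean was 0.86 ± 0.11 (SE) higher than untreated with desipramine on the log2 scale, with a 95% interval of 0.63 to 1.08, which is 1.81-fold. With fluoxetine it was 0.96 ± 0.11 higher (0.74 to 1.19), or 1.95-fold. With haloperidol the difference was 0.15 ± 0.11 (-0.08 to 0.37) and with diazepam 0.06 ± 0.12 (-0.19 to 0.31). Because 5 of 6 untreated arrays did not detect Maff, these folds are inexact, and the offset added in normalization pulls them toward 1. In the order of levels, fluoxetine and desipramine did not differ beyond their spread, nor did haloperidol, diazepam and untreated cells.

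**Figure D3:**
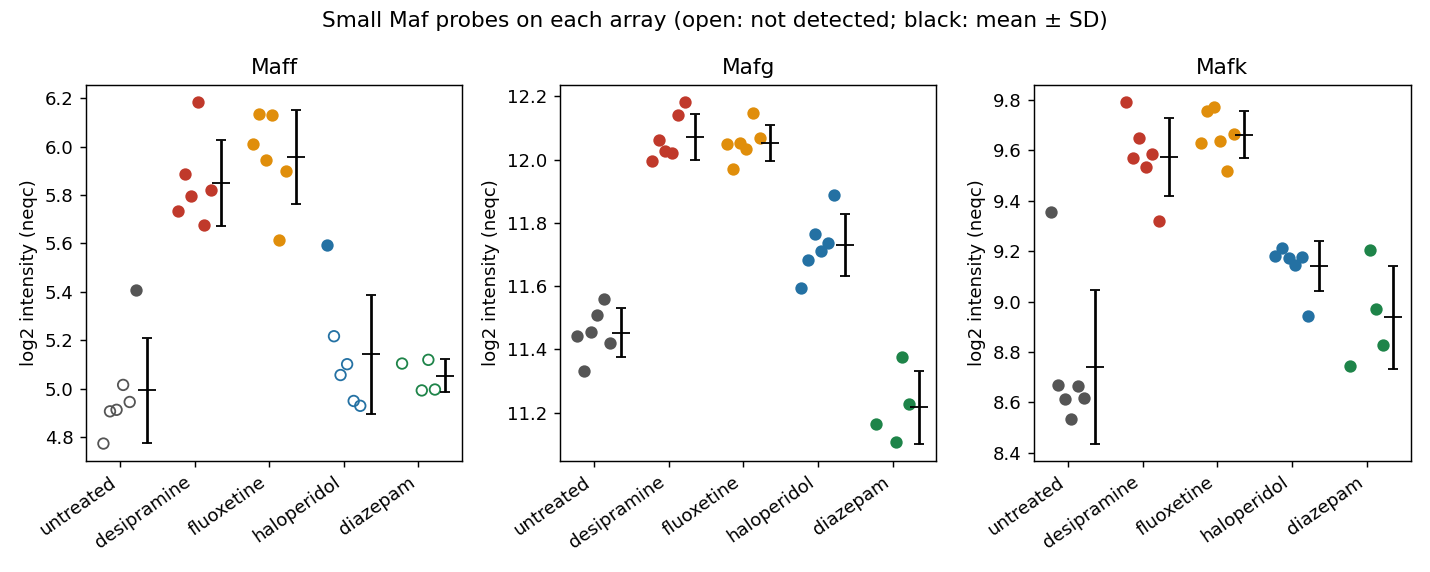
Normalized log2 intensity of the Maff, Mafg and Mafk probes on each array, by group, with 1 panel per gene. Open points were not detected, and the black marks are means ± SD over 6 arrays (4 with diazepam). Maff is detected throughout desipramine and fluoxetine, Mafg is lowest with diazepam, and 1 untreated array of Mafk, at 9.36, stands above the other 5.

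Mafg, which is broadly expressed and partners Nrf2 in many tissues, was detected on all 28 arrays and had the smallest spread of the 3 in untreated cells. Its untreated values were 11.33 at the lowest, 11.45 at the median and 11.56 at the highest on the log2 scale. Desipramine gave 12.00, 12.04 and 12.18, fluoxetine 11.97, 12.05 and 12.15, and haloperidol 11.59, 11.72 and 11.89. Diazepam gave 11.16, 11.11, 11.37 and 11.23 on arrays 1, 4, 5 and 6. All values of the desipramine, fluoxetine and haloperidol groups lay above all untreated values, the haloperidol group by a margin of 0.03. Of the diazepam values 3 lay below the lowest untreated value and 1 lay just above it.

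Means of Mafg were 11.45 ± 0.08 (SD, n = 6) on the untreated arrays, 12.07 ± 0.07 (n = 6) with desipramine, 12.05 ± 0.06 (n = 6) with fluoxetine, 11.73 ± 0.10 (n = 6) with haloperidol and 11.22 ± 0.12 (n = 4) with diazepam. The difference from untreated was 0.62 ± 0.06 (SE) log2 units with desipramine, 1.54-fold, with a 95% interval of 0.50 to 0.74. It was 0.60 ± 0.06 with fluoxetine (0.48 to 0.72), 1.52-fold, and 0.28 ± 0.06 with haloperidol (0.15 to 0.40), 1.21-fold. With diazepam Mafg was lower, the difference being -0.24 ± 0.07 (-0.37 to -0.10). Mafg was thus the member whose drug groups fell on both sides of the untreated level.

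Mafk, which forms the same kinds of dimers as Mafg, was detected on all arrays too. Its untreated values were 9.36, 8.67, 8.61, 8.53, 8.66 and 8.62 for arrays 1 to 6. Desipramine gave 9.32 at the lowest, 9.58 at the median and 9.79 at the highest, fluoxetine 9.52, 9.65 and 9.77, and haloperidol 8.94, 9.18 and 9.21. Diazepam gave 8.74, 9.21, 8.97 and 8.83 on arrays 1, 4, 5 and 6. Untreated array 1 was higher than every haloperidol and diazepam array and higher than the lowest desipramine array, and without it each of the 4 drug groups would lie above the other untreated values.

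Means of Mafk were 8.74 ± 0.31 (SD, n = 6) on the untreated arrays, 9.57 ± 0.15 (n = 6) with desipramine, 9.66 ± 0.09 (n = 6) with fluoxetine, 9.14 ± 0.10 (n = 6) with haloperidol and 8.94 ± 0.20 (n = 4) with diazepam. Desipramine was 0.83 ± 0.10 (SE) log2 units above untreated (0.62 to 1.05), 1.78-fold, and fluoxetine 0.92 ± 0.10 (0.71 to 1.13), 1.89-fold. Haloperidol was 0.40 ± 0.10 above (0.18 to 0.61), 1.32-fold, and diazepam 0.19 ± 0.12 (-0.04 to 0.43). Without untreated array 1 the differences were 0.96 with desipramine, 1.04 with fluoxetine, 0.52 with haloperidol and 0.32 with diazepam.

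**Figure D4:**
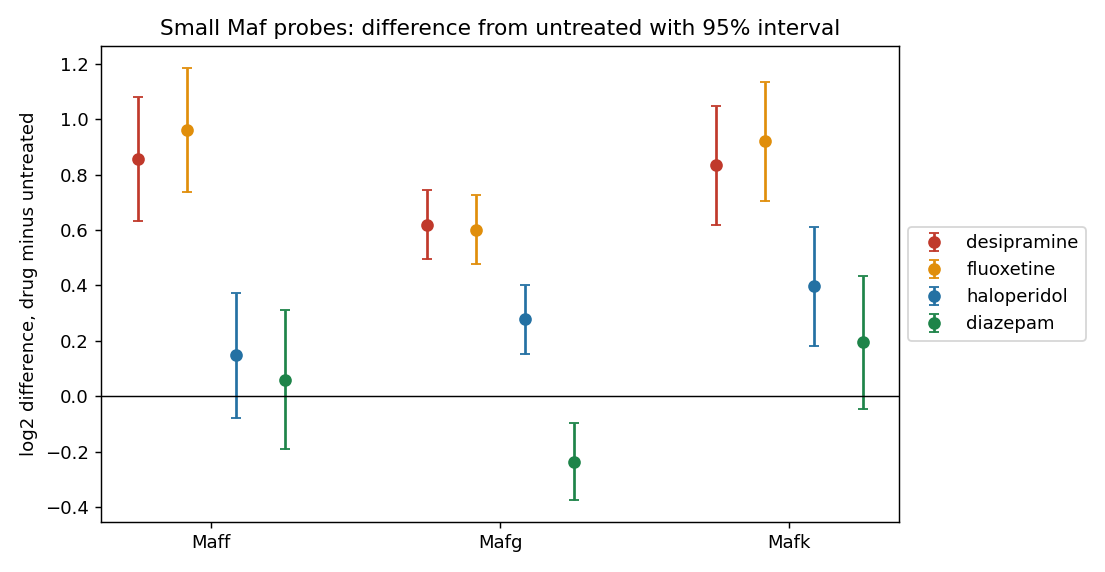
Difference from untreated in log2 units for Maff, Mafg and Mafk under each of the 4 drugs, with 95% intervals. Desipramine and fluoxetine lie between 0.60 and 0.96 for all 3 genes, and Mafg with diazepam is at -0.24.

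A fit over all probes shows how common such differences were. A probe counts as called at an adjusted p under 0.05, and since the members were chosen from these comparisons the counts only describe them. With desipramine 3 of 3 members were called higher, where 3.37% of all probes tested were. With fluoxetine 3 of 3 were (2.21% of probes), with haloperidol Mafg and Mafk (2.28%), and with diazepam 0 of 3 were called in either direction (0.792%). Groups did not overlap for 2 members with desipramine (1.46% of probes higher without overlap), 3 with fluoxetine (2%), 1 with haloperidol (1.57%) and 0 with diazepam (1.12%). The 4 comparisons share the untreated arrays and are not independent of each other. Mafk with haloperidol lost its call when single arrays were left out, among them haloperidol arrays 1, 2 and 5 and each of untreated arrays 2 to 6, at differences of 0.36 to 0.39, and Mafg with haloperidol lost its call with the authors' normalized values, at 0.24.

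The drugs were set against each other directly at the same dose and time, in 6 pairs and 18 comparisons of a gene. Of these 13 were called, all with no overlap. In the pairs with a called member, 1.54% to 4.51% of all probes were called higher and 1.65% to 3.63% were higher without overlap. The 6 pairs share drug groups, so these comparisons are not independent of each other either. Desipramine and fluoxetine were not separated for any member: the difference of desipramine minus fluoxetine was -0.11 for Maff (95% interval -0.33 to 0.12), 0.02 for Mafg (-0.11 to 0.14) and -0.09 for Mafk (-0.30 to 0.13). Of the members 0 were called, where 8.29% of all probes were called between these 2 drugs. The intervals still allow differences as large as those bounds.

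Each antidepressant was above haloperidol for every member. Desipramine exceeded haloperidol by 0.71 log2 units for Maff (0.48 to 0.93), 0.34 for Mafg (0.22 to 0.47) and 0.44 for Mafk (0.22 to 0.65), where 4.25% of probes were called higher and 1.78% were higher without overlap. Fluoxetine exceeded it by 0.81 for Maff (0.59 to 1.04), 0.32 for Mafg (0.20 to 0.45) and 0.52 for Mafk (0.31 to 0.74), where 2.14% were called higher and 1.65% were higher without overlap. Because 5 of 6 haloperidol arrays did not detect Maff, its differences from haloperidol and their intervals are inexact. The groups of each of these comparisons did not overlap, although for Maff the gap between fluoxetine and haloperidol was 0.02.

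Against diazepam, where no array detected Maff, the fold of Maff is a lower bound set by the detection limit: at least 1.48-fold higher with desipramine and at least 1.59-fold higher with fluoxetine. Mafg was 0.85 log2 units higher with desipramine than with diazepam (0.72 to 0.99) and 0.84 with fluoxetine (0.70 to 0.97). Mafk was 0.64 higher with desipramine (0.40 to 0.88) and 0.73 with fluoxetine (0.49 to 0.97). All 3 members were called in both comparisons and did not overlap. Of all probes 4.51% were called higher with desipramine than with diazepam and 3.61% were higher without overlap, and with fluoxetine these shares were 2.9% and 3.63%. Haloperidol and diazepam were separated for Mafg, at 0.51 (0.37 to 0.65), where 1.54% of probes were called higher and 2.17% were higher without overlap, while Mafk differed by 0.20 (-0.04 to 0.44) without a call.

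Each drug array was also set against the untreated array of its own replicate number. Where the groups do not overlap, the count of higher differences is fixed in advance, and only their size is added. Deviations of same-numbered arrays correlated positively with untreated cells in every pair for desipramine, fluoxetine and diazepam. The lowest correlation was 0.0358 with diazepam and -0.005 with haloperidol. For haloperidol and diazepam the differences by number are given as values only. Maff was higher than untreated in 6 of 6 such differences with desipramine, from 0.41 to 1.17 log2 units, and in 6 of 6 with fluoxetine, from 0.49 to 1.23. With haloperidol it was higher in 5 of 6, from -0.48 for number 6 to 0.82 for number 1, and with diazepam in 2 of 4. Mafg was higher in 6 of 6 with desipramine (0.51 to 0.76), with fluoxetine (0.53 to 0.65) and with haloperidol (0.15 to 0.47), and with diazepam it was lower in 4 of 4 (-0.40 to -0.19). With the replicate number as a block the Mafg difference for diazepam was -0.25 and was called, although same-numbered diazepam and untreated arrays correlated only weakly in some pairs. Mafk was higher in 6 of 6 with desipramine (0.43 to 1.03) and fluoxetine (0.27 to 1.16), in 5 of 6 with haloperidol and in 3 of 4 with diazepam, where the negative values, -0.18 and -0.61, both came from number 1.

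The members did not follow the replicate numbers in the same way. Averaged over the groups, deviations from the group mean ran from -0.14 for number 5 to 0.09 for number 4 in Maff. They ran from -0.06 for number 2 to 0.09 for number 5 in Mafg, and from -0.14 for number 6 to 0.13 for number 1 in Mafk. Within arrays numbered 1 to 4 the Maff difference from untreated was 1.00 with desipramine and 1.15 with fluoxetine, and within numbers 5 and 6 it was 0.57 and 0.58. The Mafg differences were 0.59 and 0.59 within numbers 1 to 4 and 0.67 and 0.62 within 5 and 6. For Mafk they were 0.84 and 0.90 within numbers 1 to 4 and 0.81 and 0.95 within 5 and 6. With haloperidol the Maff difference was 0.34 within numbers 1 to 4 and -0.24 within 5 and 6, whereas Mafg was at 0.26 and 0.32 and Mafk at 0.39 and 0.42. With diazepam Maff was at 0.15 and -0.12, Mafg at -0.30 and -0.19 and Mafk at 0.18 and 0.26.

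Over the 28 arrays, which share drug groups, the members went together. Pearson's r of log2 intensity was 0.77 between Maff and Mafg, 0.78 between Maff and Mafk and 0.77 between Mafg and Mafk. With group means removed these became -0.44, -0.13 and -0.37. Among 7957 genes, Mafg ranked 28 in likeness to Maff, Mafk ranked 22 for Maff and 25 for Mafg, so other genes followed each member more closely than its family did. These correlations are a description over arrays that share group and replicate number.

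The 5 genes whose log2 intensity was most like Maff over the 28 arrays, out of 7955, were Sgk1 (r = 0.90), a kinase that serum and glucocorticoids induce, the transcription factor Irf1 (0.86), the ephrin receptor Epha2 (0.86), the secreted stress protein Gdf15 (0.85) and Zfand2a (0.85), which arsenite induces. Mean Sgk1 was 11.46 with desipramine and 11.61 with fluoxetine. It was 10.68 with haloperidol, 10.66 with diazepam and 10.65 without a drug, so it was high with the antidepressants and close to untreated with the other drugs. Mafg was most like the growth regulator Myc (0.91), the mitochondrial carrier Slc25a25 (0.90), the matrix protein Ccn2 (0.86), Fhdc1 (0.84) and Rnd3 (0.83). Mean Myc was 9.57 with desipramine and 9.59 with fluoxetine. It was 8.87 with haloperidol, 8.85 without a drug and 8.38 with diazepam, and was lowest with diazepam as Mafg was. Sgk1 and Myc were picked for their likeness over these same arrays. Their sharing of a group pattern with the member follows from that choice and adds no support. Mafk was most like Irf1 (0.90), Gdf15 (0.89), the TWEAK receptor Tnfrsf12a (0.87), the MAP kinase phosphatase Dusp8 (0.87) and Epha2 (0.87). Mean Gdf15 was 4.91 without a drug and 5.12 with diazepam, below the detection limit of 5.21 to 5.34. Mean Dusp8 was 5.23 and 5.02 in the same order, so the low groups of these genes are near or below that limit, as for Maff. After the mean of each replicate number was removed, r was 0.94 for Sgk1 with Maff and 0.94 for Slc25a25 with Mafg. It was 0.92 for Myc with Mafg and 0.92 for Irf1 with Mafk. These values still hold the differences between the drug groups. Irf1, Gdf15 and Epha2 stood among the 5 nearest of both Maff and Mafk before that step but not after it, when Irf1 ranked 6 and Gdf15 ranked 7 for Maff and Epha2 ranked 6 for Mafk.

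The dimer partners and targets of the small Mafs were tested in the fit over all probes, with p adjusted over the 11364 probes (limma, Benjamini-Hochberg). Their lists were drawn up with earlier results of these data known. Apart from the CNC and Bach partners, most genes are named for their large differences. The p-values below are therefore not independent support. Of the 6 CNC and Bach partners, 1 was measured, Nfe2l2, the gene of Nrf2. Nfe2, Nfe2l3 and Bach1 were on the array but were detected on 0 arrays, Bach2 was detected on 1, and no probe carried the symbol Nfe2l1. The log2 intensity of Nfe2l2 was 10.42 at the lowest, 10.47 at the median and 11.12 at the highest in untreated cells, 10.65, 11.06 and 11.18 with desipramine, and 10.50, 10.51 and 10.67 with fluoxetine. The desipramine and untreated groups overlapped only through the highest untreated array, which was above the desipramine median. Leaving out single arrays gave differences of 0.41 to 0.55 for Nfe2l2 with desipramine. Nfe2l2 rose with desipramine, by 0.44 ± 0.10 (SE) log2 units (limma adjusted p = 0.004). It differed by -0.04 with fluoxetine, 0.01 with haloperidol and 0.01 with diazepam from untreated. Desipramine also exceeded fluoxetine directly, by 0.48 ± 0.10 (limma adjusted p = 0.00154), in contrast to the small Mafs, for which these drugs were not separated.

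Among the antioxidant response targets, the enzymes and transporters that Nrf2 with a small Maf is known to activate, 19 of 24 genes were measured. With desipramine 2 of 19 rose, where 3.97% of all genes did, with fluoxetine 1 (2.64%), with haloperidol 1 (2.59%) and with diazepam 0 (0.377%), where 2 passed an unadjusted p under 0.05 in limma (9.93% of all genes did). None fell with any drug (0 of 19), where 2.36% of all genes fell with desipramine, 1.7% with fluoxetine, 1.48% with haloperidol and 0.478% with diazepam. With the replicate number as a block 3 rose with desipramine, Nqo1 being added (0.43, limma adjusted p = 0.0222), and Blvrb fell with haloperidol (the difference was -0.26, limma adjusted p = 0.0233). Nqo1, a quinone reductase, and Blvrb, a biliverdin reductase, were named after their values were seen. The median difference of the 19 genes was 0.05 with desipramine, -0.07 with fluoxetine, 0.03 with haloperidol and -0.00 with diazepam, beside a median of all genes near 0. Over the 4 drugs together 2 of 19 passed in at least 1 comparison, where 11.8% of all genes did, and without untreated array 1 or without desipramine array 6 the count was 4.

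Hmox1, the heme-degrading enzyme heme oxygenase, had log2 values of 9.40 at the lowest, 9.73 at the median and 10.01 at the highest in untreated cells, 10.53, 10.86 and 10.93 with desipramine, 9.93, 10.21 and 10.70 with fluoxetine, and 10.32, 10.48 and 10.61 with haloperidol. All desipramine and haloperidol arrays were above all untreated ones, and the fluoxetine arrays overlapped them. It rose by 1.06 ± 0.11 (SE) with desipramine (limma adjusted p = 2.24e-07), by 0.53 ± 0.11 with fluoxetine (limma adjusted p = 0.00275) and by 0.76 ± 0.11 with haloperidol (limma adjusted p = 5.56e-05). With diazepam the difference was -0.26 ± 0.12 (limma adjusted p = 0.497). Desipramine exceeded fluoxetine by 0.53 ± 0.11 (limma adjusted p = 0.00196). Gclc, the catalytic subunit of the first enzyme of glutathione synthesis, rose with desipramine, by 0.59 ± 0.12 (limma adjusted p = 0.00172), and differed by -0.14 with fluoxetine, 0.17 with haloperidol and 0.19 with diazepam. Its desipramine and untreated groups overlapped, the lowest desipramine array being at 10.67 and the highest untreated array at 10.92. Only that untreated array reached the desipramine range, and the medians were 11.25 with desipramine and 10.45 in untreated cells. Leaving out single arrays gave Gclc differences of 0.55 to 0.68 with desipramine. Desipramine exceeded fluoxetine for Gclc by 0.73 ± 0.12 (limma adjusted p = 0.000121).

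The 6 regulators of Nrf2 (Keap1, Cul3, Rbx1, Sqstm1, Btrc and Gsk3b), which control its breakdown, were all measured, and 0 of 6 passed the limma threshold with any drug. At an unadjusted p under 0.05, 3 of them passed with desipramine (19.3% of all genes did), 2 with fluoxetine (16.9%), 1 with haloperidol (17.2%) and 2 with diazepam (9.93%). With the replicate number as a block Btrc passed with desipramine (0.37, limma adjusted p = 0.0191) and Sqstm1 with fluoxetine (0.24, limma adjusted p = 0.0266). These 2 genes were named after their values were seen. Of the 4 large Maf factors only Maf was measured, and 0 of 1 passed with any drug in limma. Its differences were -0.10 with desipramine, -0.09 with fluoxetine, -0.08 with haloperidol and 0.20 with diazepam, the last with an unadjusted p of 0.0401.

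Fos and Jun family proteins, basic leucine zipper factors some of which, such as Fos, can pair with small Mafs, had 5 of 10 genes measured. With desipramine 3 of 5 rose and 1 fell, where 3.97% of all genes rose and 2.36% fell. With fluoxetine 2 rose (2.64% of all genes), with haloperidol 3 rose and 1 fell (2.59% and 1.48%), and with diazepam 1 fell (0.478%). The median difference was 0.54, 0.37, 0.48 and -0.11 in that order. Atf3, a stress-induced repressor, rose by 0.54 ± 0.13 with desipramine (limma adjusted p = 0.00914), by 1.60 ± 0.13 with fluoxetine (limma adjusted p = 3.33e-10) and by 0.87 ± 0.13 with haloperidol (limma adjusted p = 7.84e-05). Fos rose by 0.75 ± 0.11 with desipramine (limma adjusted p = 7.11e-05) and by 0.48 ± 0.11 with haloperidol (limma adjusted p = 0.0111), and was at 0.37 ± 0.11 with fluoxetine (limma adjusted p = 0.0637). Junb rose with desipramine, by 0.79 ± 0.20 (limma adjusted p = 0.0119), but the groups overlapped widely. Its untreated values ran from 10.11 to 11.81 and its desipramine values from 10.76 to 11.87. The highest untreated array stood apart from the rest, the untreated median being 10.51 and the desipramine median 11.45. Leaving out single arrays gave Junb differences of 0.68 to 1.02 with desipramine. Jdp2, a repressor that binds the same sites, rose by 0.71 ± 0.14 with fluoxetine (limma adjusted p = 0.00265) and 0.72 ± 0.14 with haloperidol (limma adjusted p = 0.00247), and 2 of 6 untreated arrays detected it. Jun, named after its values were seen, was the member that fell, its differences being -0.30 with desipramine, -0.64 with haloperidol and -0.51 with diazepam (limma adjusted p = 0.0191, 5.42e-06 and 0.00144). The Jun call with desipramine was lost without untreated array 2, at -0.27. The desipramine and untreated groups also overlapped for Atf3 and Jun, and the haloperidol and untreated groups for Fos.

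**Figure D5:**
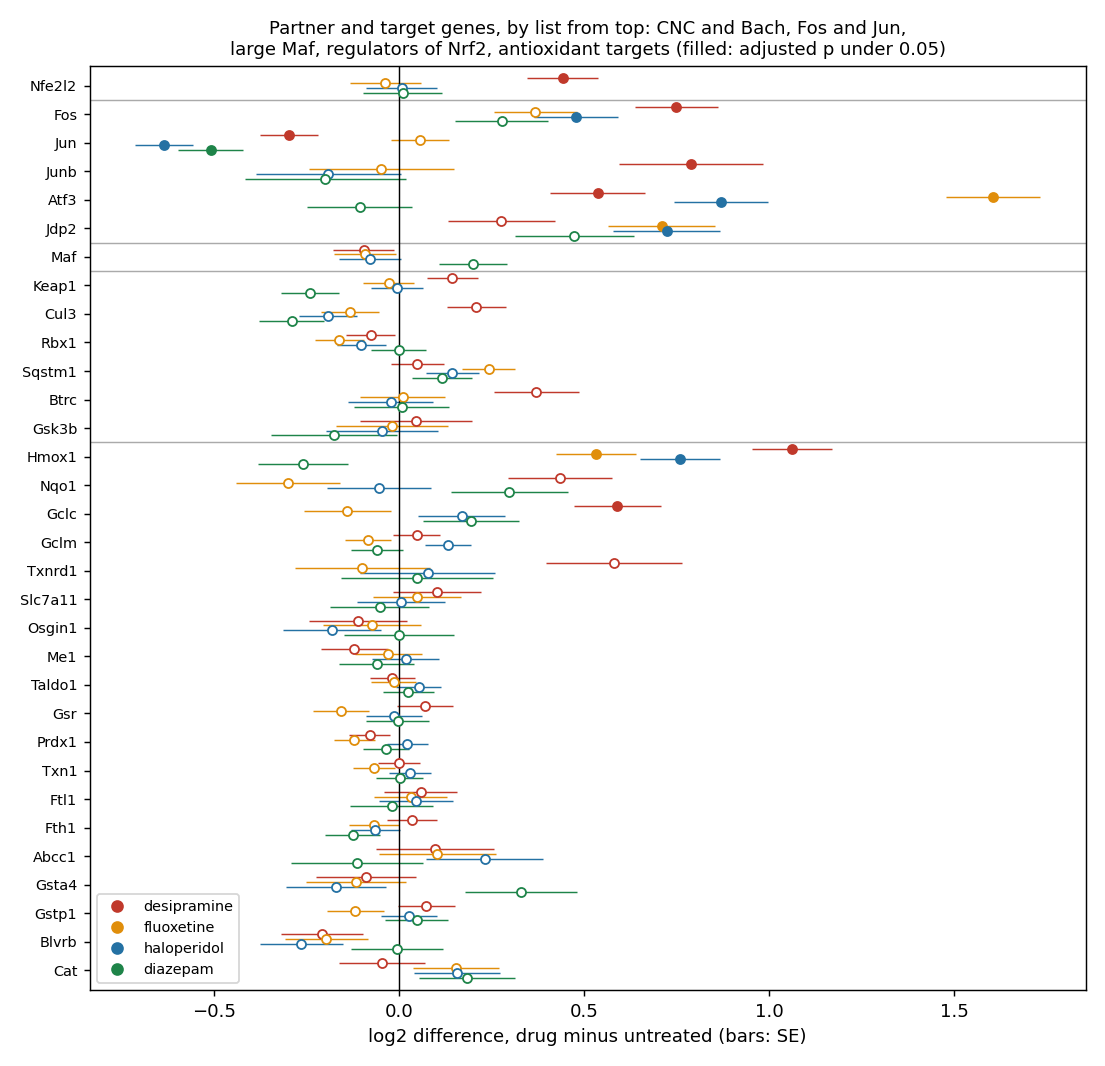
Difference from untreated in log2 units, with SE, for the measured CNC partner, Fos and Jun, large Maf, Nrf2 regulator and antioxidant target genes under the 4 drugs. Filled points passed an adjusted p under 0.05. Hmox1 is furthest to the right among the targets, at 1.06 with desipramine, and most targets lie near 0.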

How the data were processed

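RNA of 28 samples of C6 cells was measured on Illumina rat bead arrays. The authors deposited a table of raw probe intensity on a linear scale with a detection p-value per probe and array, and separately normalized intensity whose method is not given in the sources used here. They read the arrays with GenomeStudio 1.9.0, per the submitters' processing notes. The deposited detection p-value moves in steps of 1 in 825. Columns of 2 arrays with no sample (4 columns) were not used.

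Raw intensity was background corrected, quantile normalized and put on a log2 scale with neqc of limma 3.58.1 in R 4.3.3 (negative controls inferred from the detection p, offset 16). The offset understates differences of dim probes such as Maff. A probe was kept where at least 4 arrays had its detection p below 0.05 (11364 of 22523, with 7958 named genes). All 3 members passed, Maff by way of the desipramine and fluoxetine groups. Symbols came from the platform annotation: 13793 probes had 1 symbol, 0 several and 8730 none. Genes on several probes are represented by the probe with the highest mean. No build came with the probes, and promoter coordinates are those of the RefSeq table.

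The fit had 1 mean per group over all arrays with no block, and p was two-sided, adjusted by Benjamini-Hochberg over all probes kept, with 0.05 as the threshold. On simulated data with known changes the fit was tested for the desipramine comparison. The members and lists were chosen with earlier results of these data known. Named genes are the members, every CNC and Bach partner, up to 4 members of each other list with the largest difference among those past the threshold, and the 5 genes most correlated with each member. After group means were removed, same-numbered arrays correlated at 0.223 to 0.467 for untreated with desipramine and at 0.104 to 0.508 with fluoxetine. With haloperidol the lowest was -0.005 and with diazepam 0.0358, and over all 52 same-numbered pairs of arrays the values ran from -0.005 to 0.510. No values for differently numbered arrays are given beside these, so they do not settle whether the numbers pair the arrays. The labels state no block, and the block is therefore given only as an alternative. The alternatives were the replicate number as a block, another offset, a stricter detection filter, the authors' normalized values, median scaling, array weights, subsets of replicate numbers, leaving out each array and, chosen after seeing the data, leaving out all arrays numbered 1. The number of arrays limits the precision.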

Additional observations from a re-analysis of the deposited data

Results flagged for a closer look

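Of 15 groups of values (3 genes in 5 groups), 2 held a sample far from the others by Dixon's 95% limit, which chance meets in about 1 in 20 groups. Mafk on untreated array 1 was 9.36 log2 units, and the nearest other untreated array was 8.67, a gap of 0.834 of the whole range. Mafk on haloperidol array 6 was 8.94, and the nearest other haloperidol array was 9.15, a gap of 0.749 of the range.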

How the results depend on the processing

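Of the main values and counts recomputed under alternatives, 645 kept their size or count or stayed close to it, 33 moved and 0 changed sign among called values. Small shifts were not counted as moved: with the authors' values the antioxidant count was 3 in place of 2. Lost or gained calls were not counted as moved either. The Mafk difference with haloperidol kept its size in 39 settings, but its call differed in 11. With the offset at 50 the Maff difference from untreated was 0.48 with desipramine and 0.54 with fluoxetine. Within arrays numbered 5 and 6, with 2 arrays a group, Maff was at 0.57 with desipramine, 0.58 with fluoxetine and -0.24 with haloperidol. In this subset Maff and Mafg lost their calls against untreated with desipramine and fluoxetine, and Mafk lost its call with desipramine. Mafg and Mafk also lost their calls with haloperidol there, whereas Mafk with fluoxetine kept its call. The counts of list genes past the threshold in at least 1 drug comparison were then 0 in place of 2 antioxidant targets, 0 in place of 1 CNC and Bach partner and 1 in place of 5 Fos and Jun genes, the construction leaving fewer arrays. Without all arrays numbered 1, Mafk with diazepam was at 0.38, and at 0.42 with the replicate block added, when it was called. At a detection p under 0.01, untreated Maff was detected on 0 arrays in place of 1, desipramine on 3 in place of 6 and haloperidol on 0 in place of 1. The antioxidant count was 4 with the replicate block (1 of them a fall), with array weights and without all arrays numbered 1 (with or without the block), and 2 to 4 over leaving out single arrays. The count of Nrf2 regulators, 0 as reported, was 2 with the replicate block, the offset of 50, the stricter filter and the block without arrays numbered 1, 1 with array weights, and 0 to 2 over leaving out single arrays. Where not stated, the cause was not tested. Fos with fluoxetine passed the threshold with array weights, with the authors' values and without untreated array 1 or 2 or diazepam array 6. Mafg with haloperidol was not called under median scaling, at 0.20, and Mafk with haloperidol was at 0.37.

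The replicate block raised the probes called from 635 to 1105 with desipramine, 426 to 861 with fluoxetine, 424 to 848 with haloperidol and 90 to 172 with diazepam. Among the members it changed the call of Mafg with diazepam, at -0.25, and no other call against untreated. Signal over background limits Maff, which 5 of 6 untreated arrays did not detect.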
